A study of Mus musculus with 6 samples.

Results

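H3K27ac, the acetylation of histone H3 at a lysine of its tail that marks active enhancers and promoters, was examined across Sox2 and the distal control region downstream of it in mouse ESCs before and after degradation of OCT4. The members are all H3K27ac peaks that overlap chr3:34600000-34780000 of GRCm38, a window of 180 kb around the gene and the distal control region. The rule uses position alone and finds 15 of the 31131 peaks in the files. The 6 ChIP-seq libraries, from 3 immunoprecipitations (IPs) per condition, come from ESCs of strain 129SV that are Oct4-/- at the endogenous gene. Their TetOFF Oct4 transgene for the wild-type protein was held off by doxycycline in both groups. CAG Oct4AID, the protein fused to an auxin-inducible degron, and CAG Tir1, the auxin receptor, are expressed from the constitutive CAG promoter. The uninduced group was left untreated, and the IAA group received 500 μM indole-3-acetic acid, an auxin that targets the degron-tagged protein for degradation, for 1.5 h. The level of OCT4 protein itself was not analysed here. Cells of both groups were grown in N2B27 with PD03, Chiron and mLIF, which hold ESCs in the naive state.

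SOX2 is a transcription factor that binds DNA next to OCT4, and the pair occupies the enhancers of many pluripotency genes, including the genes for SOX2 and OCT4 themselves. The Sox2 gene has a single exon and lies within the long non-coding transcript Sox2ot. In ESCs its transcription depends on a cluster of enhancers far downstream, the Sox2 control region, while enhancers close to the gene are also used in neural cells. The comparison asked whether acetylation at the gene and at its distal region changed within 1.5 h of OCT4 degradation, and whether it changed more than at other peaks.

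The values are RPKM, reads per kilobase of peak scaled to the library size. Libraries held 31634480 to 39547452 reads, and 2 facts of the whole series bear on each result here. Reads in peaks made up 6.63% to 7.12% of the uninduced libraries and 4.05% to 5.15% of the IAA libraries, and the median log2 change over the 26457 peaks above the background threshold of 0.5 RPKM was -0.55. RPKM scales to the whole library, and the share of reads in peaks is itself made of the reads of these peaks. The paper reports a decrease of H3K27ac over all peaks of these IPs. A fall of the mark at all peaks and a technical shift between libraries cannot be told apart here. Their part in the changes at Sox2 was not tested beyond the comparison with the median peak given below. No library of input chromatin or spike-in was used here. The ESC label was checked against peaks within 10 kb of 5 pluripotency genes, 1 of them Sox2 itself. Their mean uninduced level was 9.78 RPKM at Pou5f1 (the gene for OCT4), 6.59 at Esrrb, 6.12 at Sox2, 6.08 at Klf4 and 5.81 at Nanog, where the median over 13769 protein-coding genes with a peak within 10 kb was 2.71. These 5 are among the higher genes of the pluripotency circuit. The value at Pou5f1 can include reads from the Oct4 transgenes, which carry the same coding sequence. Of the 17 circuit genes with a peak described at the end, 4 lay below that median, Nr0b1 at 2.21, Dppa4 at 2.19, Prdm14 at 1.97 and Utf1 at 1.85 RPKM, and Lefty1 had no peak within 10 kb.

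The 15 peaks were grouped by position into 3 sets of 5. The gene-proximal peaks lie within 10 kb of the Sox2 gene body (34650405 to 34652461 on the plus strand of chromosome 3, GENCODE vM21), the distal peaks begin more than 80 kb downstream of its end, and the others lie between. Peaks are named here by the distance of their first base from the annotated start of Sox2. The gene-proximal set holds peaks at 8.4 kb and 1.7 kb upstream and at 0.1 kb, 2.2 kb and 6.4 kb downstream. The peak at 0.1 kb covers coding sequence and UTR of Sox2. The set between them holds peaks at 13.0, 18.5, 41.8, 48.7 and 59.4 kb, and the distal set peaks at 94.1, 105.7, 106.7, 108.9 and 123.4 kb. Sox2 is the only protein-coding gene among the 11 annotated genes that overlap the window. Sox2ot overlaps 7 of the peaks, the lincRNA Gm3143 2, the unclassified transcript Gm42693 1 and the lincRNA Gm38509 1, whereas the 4 distal peaks from 94.1 to 108.9 kb and the peak at 41.8 kb are intergenic. The authors' table marks peaks that have an OCT4 peak of earlier ChIP-seq in other ESCs no more than 1 kb away. The mark is set at 8 of the 15 peaks (53.3%), against 17.6% of all peaks above the threshold. These are 3 gene-proximal peaks (1.7 kb upstream, 0.1 kb and 6.4 kb), 1 between (18.5 kb) and the 4 distal peaks from 94.1 to 108.9 kb.

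The DNA under and beside these peaks was read from the GRCm38 sequence and searched on both strands for the octamer bound by OCT4 (ATGCAAAT), for the SOX core (CATTGT), and for the OCT4-SOX2 composite, which is the SOX core, 1 base of any kind and the octamer, with up to 2 mismatches over its 14 letters. The composite contains both of the other words, so a match to it can also be counted as one of them. From 34640018 to 34776300 there were 4 octamers, 4 composites and 72 SOX cores. No background was counted for a stretch of this length or for the distance from a match to a peak. The 15 peaks themselves held 0 octamers, 0 composites and 5 SOX cores in 4 peaks, so that every octamer and composite lay outside the peaks. Of all 26457 peaks above the threshold, counted over their whole length in the same way, 3.01% held an octamer and 0.601% a composite, and a SOX core was held by 34.2% of the OCT4-marked and 24.2% of the unmarked peaks. SOX cores occurred at 0.370 per kb in the 15 peaks and at 0.398 per kb over all peaks, so the count in the window is near the background. Of 32851 RefSeq promoters of 300 bases, 1.74% held an octamer, 0.408% a composite and 12.6% a SOX core, and that of Sox2 held 0 of each. A match of letters is a description and not a shown binding site. The 5 SOX cores inside peaks are not among the 4 stretches below, which were chosen after the matches were seen. The stretches hold the promoter of the gene, the composite with the fewest mismatches, an octamer beside the peak at 18.5 kb and a SOX core beside the highest distal peak. All are given 5′ to 3′ on the plus strand.
The first is the RefSeq promoter of Sox2, chr3:34649745-34650044. Its capitals begin at the RefSeq start, which is 410 bases upstream of the GENCODE start, and both starts lie in the 840-base gap between the OCT4-marked peaks at 1.7 kb upstream and 0.1 kb downstream.
Sox2 promoter: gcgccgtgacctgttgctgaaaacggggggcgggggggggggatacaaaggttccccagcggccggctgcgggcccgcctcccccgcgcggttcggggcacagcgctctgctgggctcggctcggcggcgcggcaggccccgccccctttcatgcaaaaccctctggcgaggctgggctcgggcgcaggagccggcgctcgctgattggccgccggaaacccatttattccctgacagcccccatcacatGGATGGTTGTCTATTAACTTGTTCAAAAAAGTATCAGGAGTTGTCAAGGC
The second, chr3:34653907-34654206, lies in the gap between the peaks at 2.2 and 6.4 kb and holds the best composite match of the searched region in capitals. It differs from the composite by 1 letter, A13T, with the letter of the composite first and that of the genome last, counted from 1 at the first base of the SOX core.
Gene-side composite: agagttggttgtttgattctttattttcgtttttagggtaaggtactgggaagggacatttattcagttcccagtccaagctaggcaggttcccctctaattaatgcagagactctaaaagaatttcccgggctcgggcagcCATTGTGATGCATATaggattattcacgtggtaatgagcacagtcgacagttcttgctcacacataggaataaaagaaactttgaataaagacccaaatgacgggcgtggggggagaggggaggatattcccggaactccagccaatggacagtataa
The third, chr3:34668163-34668462, holds in capitals an octamer on the minus strand, 578 bases from the OCT4-marked peak at 18.5 kb. Another octamer, at chr3:34656287-34656294, lies 539 bases from the marked peak at 6.4 kb.
Octamer beside the 18.5 kb peak: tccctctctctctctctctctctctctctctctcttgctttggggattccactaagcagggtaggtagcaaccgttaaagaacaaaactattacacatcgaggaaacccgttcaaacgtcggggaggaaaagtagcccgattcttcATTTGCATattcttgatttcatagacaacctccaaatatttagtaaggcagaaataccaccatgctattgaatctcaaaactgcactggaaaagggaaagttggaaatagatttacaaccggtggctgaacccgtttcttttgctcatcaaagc
The fourth, chr3:34757929-34758228, runs from the end of the highest distal peak, at 106.7 kb, into the gap before the peak at 108.9 kb. Its capitals mark a SOX core 95 bases past that peak. The span of the 4 marked distal peaks held 4 SOX cores, 0 octamers and 0 composites under these rules.
Distal SOX core: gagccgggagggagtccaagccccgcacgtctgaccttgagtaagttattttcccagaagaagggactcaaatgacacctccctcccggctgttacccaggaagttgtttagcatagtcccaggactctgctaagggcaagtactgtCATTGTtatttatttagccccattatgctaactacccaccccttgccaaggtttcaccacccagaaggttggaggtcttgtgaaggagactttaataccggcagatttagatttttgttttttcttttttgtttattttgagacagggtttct

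The highest peak of the window in every library was the one over the Sox2 gene, which begins 0.1 kb downstream of the start (chr3:34650466-34651581). It had 11.3, 10.7 and 9.68 RPKM in uninduced replicates 1, 2 and 3 and 5.42, 4.62 and 3.88 RPKM in IAA replicates 1, 2 and 3, the order used for all values per library. The IAA values were all lower than any uninduced value, and 44.0% of the uninduced mean remained. Each peak was tested with limma on log2(RPKM + 0.1) over all 26457 peaks, a scale that understates the change of low peaks, adjusted by Benjamini-Hochberg and called at 0.05. The log2 change of the peak over Sox2 was -1.18 ± 0.153 (SE, n = 3 per group, limma adjusted p = 3.87e-05). The OCT4-marked peak upstream of the gene, at 1.7 kb (chr3:34648659-34649626), had 6.48, 6.86 and 6.54 RPKM before and 3.52, 3.44 and 2.48 RPKM after IAA. The groups did not overlap, and the log2 change was -1.07 ± 0.162 (SE, limma adjusted p = 0.000127). These marked peaks flank the annotated starts of Sox2, and they have the highest GC content of the 15 peaks, 61.6% and 62.2%.

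Downstream of the gene, a short peak at 2.2 kb (chr3:34652604-34652896) that carries no OCT4 mark had one of the steepest falls of the window. Its values were 6.75, 6.28 and 7.52 RPKM before and 2.71, 2.75 and 1.78 RPKM after IAA, so that 35.2% of the mean remained. The groups were far apart, with a log2 change of -1.49 ± 0.175 (SE, limma adjusted p = 2.08e-05), although the peak is 292 bases long and rests on 18 to 85 reads per library. Its first base is 143 bases past the end of the gene. The OCT4-marked peak at 6.4 kb (chr3:34656833-34657582), on the far side of the gap with the composite match printed above, had 4.12, 4.09 and 3.31 RPKM before and 2.23, 1.85 and 1.58 RPKM after IAA. Here too the groups did not overlap, with a log2 change of -0.99 ± 0.176 (SE, limma adjusted p = 0.000409). The remaining gene-proximal peak, at 8.4 kb upstream, was the lowest of the window in the uninduced libraries, at 1.46 ± 0.341 RPKM (SD, n = 3), and had 0.921 ± 0.214 RPKM (SD, n = 3) after IAA. Its log2 change was -0.61 ± 0.239 (SE, limma adjusted p = 0.0325), close to that of the median peak.

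Between the gene and the distal region, the 2 peaks nearer the gene had uninduced means of 4.39 and 4.67 RPKM and the 3 farther ones 1.94 to 2.84 RPKM. The OCT4-marked peak at 18.5 kb (chr3:34668894-34669336) had 4.92, 3.65 and 5.43 RPKM before and 1.59, 1.50 and 1.63 RPKM after IAA. This left 33.8% of the mean, the smallest share among the 15 peaks, and the log2 change was -1.49 ± 0.176 (SE, limma adjusted p = 2.13e-05). Its uninduced values were spread by 0.920 RPKM (SD) and its IAA values by 0.0650 RPKM (SD). The peak at 13.0 kb, which is not marked and overlaps an exon of Sox2ot, had 4.39 ± 0.266 RPKM before and 2.07 ± 0.218 RPKM after IAA (SD over 3 libraries each), with a log2 change of -1.05 ± 0.161 (SE, limma adjusted p = 0.000134). The unmarked peaks at 41.8, 48.7 and 59.4 kb were lower to begin with, at 1.94 to 2.84 RPKM, and 62.3% to 67.6% of their means remained. Their log2 changes were -0.57, -0.65 and -0.57, all past the threshold in limma (adjusted p = 0.0429, 0.00648 and 0.0257). The value at 41.8 kb rests on IAA replicate 3, without which the log2 change was -0.28 (limma adjusted p = 0.216). At this peak the groups overlapped, since the lowest uninduced library had 1.60 RPKM and the highest IAA library 1.66 RPKM.

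**Figure D1:**
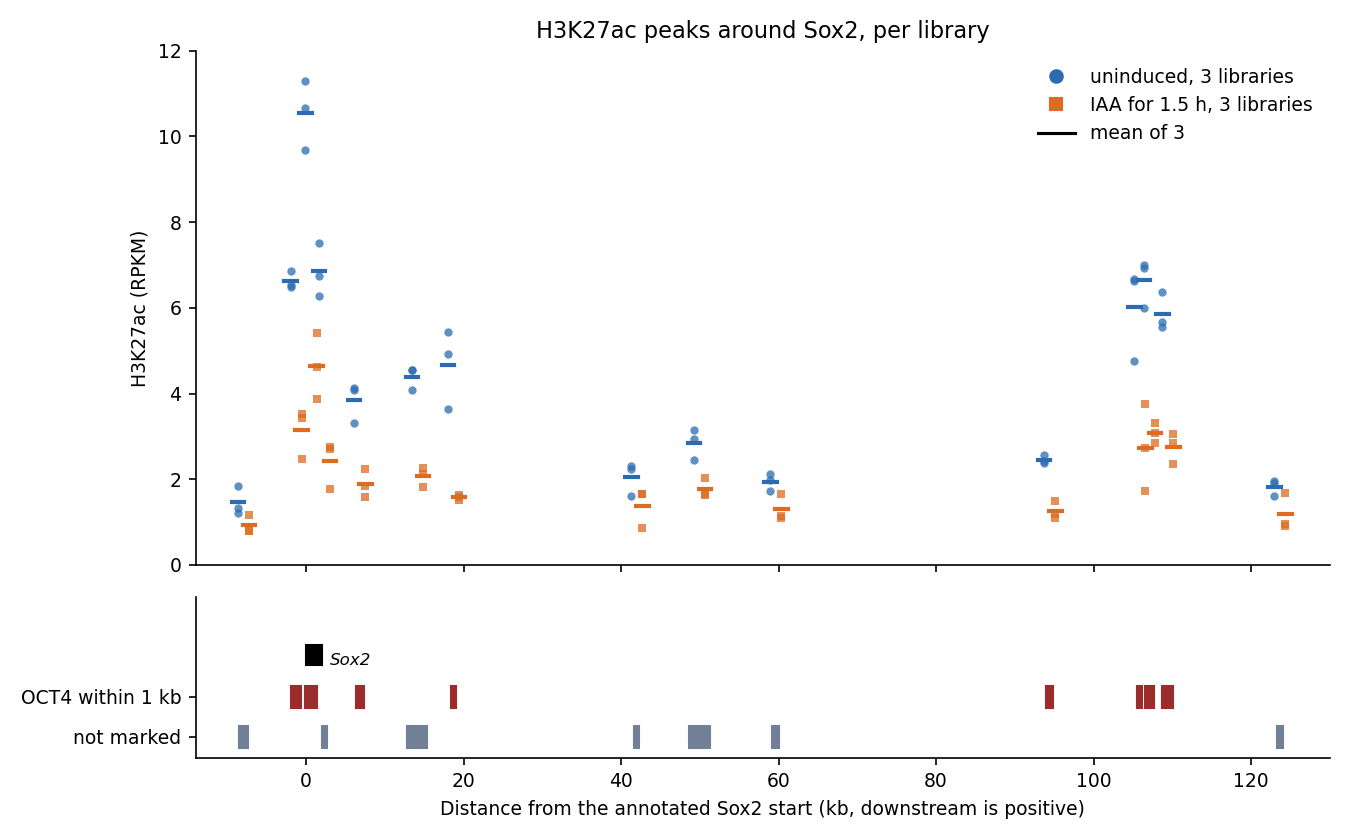
H3K27ac in RPKM (vertical axis) of the 15 peaks against distance from the annotated Sox2 start in kilobases, with 1 point per library and a line at each mean of 3, blue circles for uninduced and orange squares for IAA, drawn slightly to either side of the peak's centre. The lower strip places the Sox2 gene and the peaks with and without an OCT4 peak within 1 kb: high peaks cluster at the gene and again at 105.7 to 108.9 kb, and the IAA values lie below the uninduced values at 13 of 15 peaks.

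In the distal region, 3 closely spaced peaks marked by OCT4 reached levels like those beside the gene. The highest, at 106.7 kb (chr3:34757078-34757980), had 7.01, 5.99 and 6.93 RPKM before and 3.31, 3.07 and 2.85 RPKM after IAA. The groups did not overlap and 46.3% of the mean remained (log2 change -1.08 ± 0.151, SE, limma adjusted p = 6.67e-05). The peak at 108.9 kb (chr3:34759279-34760385) had 6.38, 5.54 and 5.67 RPKM before and 3.05, 2.86 and 2.35 RPKM after IAA, with a log2 change of -1.07 ± 0.158 (SE, limma adjusted p = 0.000102). The narrow peak at 105.7 kb (chr3:34756118-34756454) had 6.62, 6.68 and 4.77 RPKM before and 3.75, 2.72 and 1.72 RPKM after IAA. It was the most variable of the 3, with an SD of 1.09 RPKM before and 1.02 RPKM after IAA, and its log2 change was -1.16 ± 0.216 (SE, limma adjusted p = 0.000582). The marked peak at 94.1 kb (chr3:34744512-34745165) was lower and tighter, at 2.56, 2.42 and 2.37 RPKM before and 1.48, 1.19 and 1.10 RPKM after IAA (log2 change -0.92 ± 0.192, SE, limma adjusted p = 0.00136). The last distal peak, at 123.4 kb (chr3:34773848-34774300), lies in an intron of Gm38509 and carries no mark. It had 1.90, 1.96 and 1.60 RPKM before and 1.69, 0.920 and 0.957 RPKM after IAA. The first IAA library lay within the uninduced range, and the log2 change of -0.62 ± 0.234 (SE, limma adjusted p = 0.0271) was again close to that of the median peak.

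Counted over the window, limma called 15 of 15 peaks lower and 0 higher. This has to be read against the background, since 68.2% of all 26457 peaks were called lower. Peaks were called in the uninduced IPs alone, which can favour falls over rises both in the window and in this background. The size of that effect was not tested. At 13 of 15 peaks every IAA value was lower than every uninduced value, as at 71.2% of all peaks. Leaving out a library changed both the count in the window and the share of all peaks called. Without uninduced replicate 1, 2 or 3 limma called 13, 11 and 14 of the 15 peaks, beside 39.2%, 46.5% and 56.5% of all peaks. Without IAA replicate 1, 2 or 3 it called 14, 12 and 12 of the 15, beside 74.1%, 57.8% and 54.4% of all peaks. The 4 peaks that lost the call at least once are unmarked. The peak at 8.4 kb upstream lost it without uninduced replicate 2 (log2 change -0.44) and without IAA replicate 1 (-0.53) or 2 (-0.52). The peak at 41.8 kb lost it without uninduced replicate 1 (-0.50) or 2 (-0.48) and without IAA replicate 3 (-0.28). The peak at 59.4 kb lost it without uninduced replicate 2 (-0.51) or 3 (-0.55) and without IAA replicate 2 (-0.50) or 3 (-0.47). The peak at 123.4 kb lost it without uninduced replicate 1 (-0.59) or 2 (-0.57) and without IAA replicate 2 (-0.48) or 3 (-0.50). The median log2 change of the 15 peaks was -1.05, from -0.57 to -1.49, beside the median of -0.55 over all peaks. When each library was centred on its median peak, which removes a factor common to all peaks of a library, limma called 7 of 15 peaks lower, against 1.97% of all peaks. The 7 were the peaks at 1.7 kb upstream and at 0.1, 2.2, 13.0, 18.5, 106.7 and 108.9 kb, with centred log2 changes of -0.50 to -0.94 and limma adjusted p from 0.00303 to 0.0301. Their uninduced means were 4.39 RPKM or more, and 5 of them were marked. The share called after centring was not taken for marked peaks or for peaks of like level, here or for the gene lists below. The marked peaks at 6.4, 94.1 and 105.7 kb had centred log2 changes of -0.44, -0.36 and -0.61 and did not pass (limma adjusted p = 0.0896, 0.272 and 0.0924). At the other 5 peaks the centred change was between -0.02 and -0.10. Only 0.340% of all peaks fell more than the peak at 18.5 kb and 0.344% more than the peak at 2.2 kb. For the highest distal peak these shares were 3.94% of all peaks and 13.1% of the OCT4-marked peaks.

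**Figure D2:**
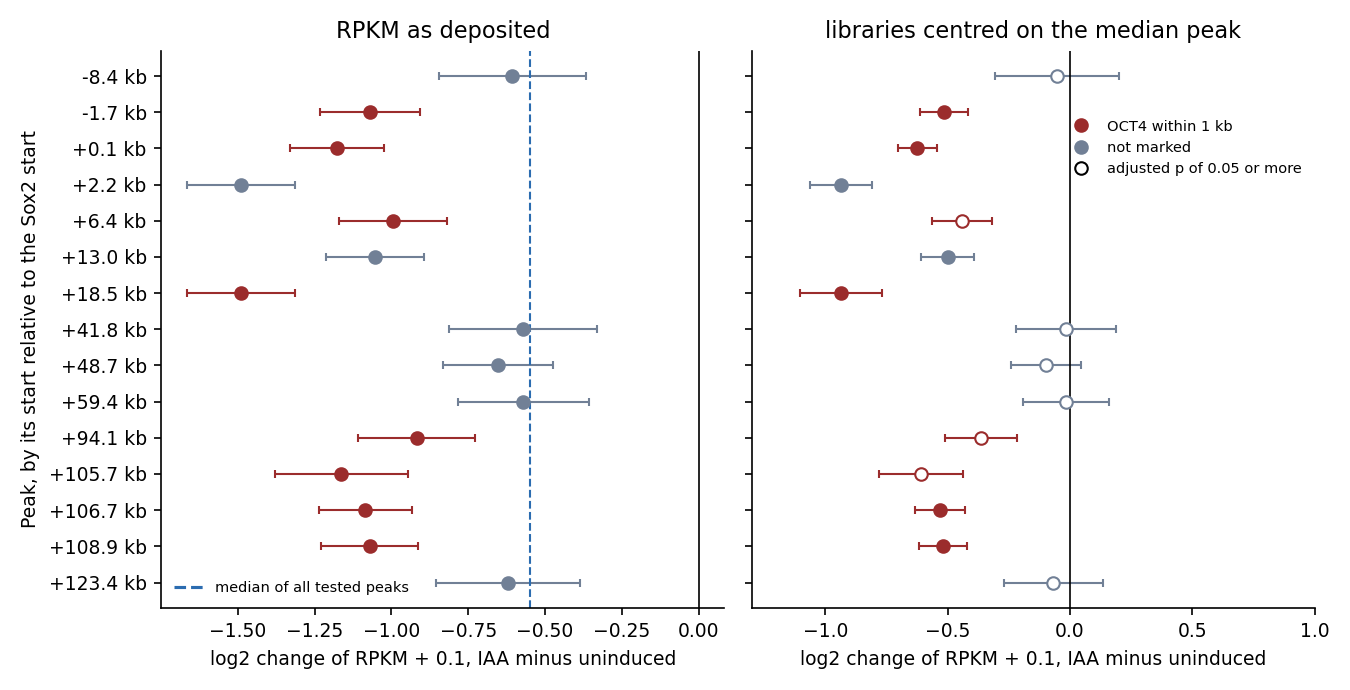
Log2 change of RPKM + 0.1 with its SE from limma (horizontal axis, IAA minus uninduced) for the 15 peaks in genomic order, red where an OCT4 peak lies within 1 kb and gray where not, with open circles for an adjusted p of 0.05 or more. On the left all 15 peaks are called lower and 10 lie beyond the all-peak median of -0.55 by more than their SE, and on the right, after each library was centred on its median peak, 7 are called.

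Summed over peaks, 45.8% of the H3K27ac level remained near the gene and 47.8% in the distal region. The length-weighted mean of the 5 gene-proximal peaks was 6.12 ± 0.298 RPKM in uninduced cells and 2.80 ± 0.403 RPKM after IAA (SD over 3 libraries each), a log2 change of -1.14. For the 5 distal peaks it was 4.91 ± 0.303 RPKM before and 2.35 ± 0.356 RPKM after IAA (SD over 3 libraries each), a log2 change of -1.07. The 5 peaks between them had 3.41 ± 0.173 RPKM before and 1.80 ± 0.209 RPKM after (SD over 3 libraries each), a log2 change of -0.93, and the whole window 4.59 ± 0.199 RPKM before and 2.23 ± 0.302 RPKM after (SD over 3 libraries each), a log2 change of -1.05. The 2 groups were fully separated in each of these sets. By a two-sided exact permutation test over the 20 labellings this gives p = 0.1, which is as small as 3 libraries against 3 can reach. The IPs are described as independent, but no source says that they came from separate cultures, so that the p-values may measure technical spread alone. In bulk chromatin, fewer cells with the mark and less of the mark per cell cannot be told apart.

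The distal region was at 0.801 times the gene-proximal level in uninduced cells and 0.837 times after IAA. The log2 difference between them was -0.32 ± 0.0869 (SD, n = 3) before and -0.26 ± 0.0352 (SD, n = 3) after IAA. This change of 0.06 is smaller than the spread of the uninduced libraries (two-sided exact permutation test, p = 0.4, where 0.1 is the smallest possible), so a difference between the falls at the gene and at the distal region was not detected. The peaks between these sets moved from -0.85 ± 0.0921 (SD, n = 3) to -0.64 ± 0.0641 (SD, n = 3) relative to the gene-proximal peaks, with no overlap between groups (two-sided exact permutation test, p = 0.1).

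Relative to the median peak of the same library, the window was also lower in all IAA libraries. The gene-proximal mean was above the median peak by 1.32 ± 0.0272 on the log2 scale (SD, n = 3) before and by 0.76 ± 0.0332 (SD, n = 3) after IAA, a change of -0.56. The distal mean was above it by 1.00 ± 0.0703 (SD, n = 3) before and by 0.51 ± 0.0507 (SD, n = 3) after, a change of -0.49, and for the whole window the change was -0.47. The groups did not overlap in any of the 3 (two-sided exact permutation test, p = 0.1 for each). Set against the median OCT4-marked peak, which itself fell more than the median of all peaks, the changes were -0.38 for the gene-proximal, -0.31 for the distal and -0.29 for all window peaks, again with no overlap. The 15 peaks drew 2571, 1933 and 2317 reads before IAA and 1168, 1089 and 904 reads after it. Per 1000 reads in peaks this is 0.900 ± 0.0145 reads (SD, n = 3) before and 0.651 ± 0.0120 reads (SD, n = 3) after IAA.

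**Figure D3:**
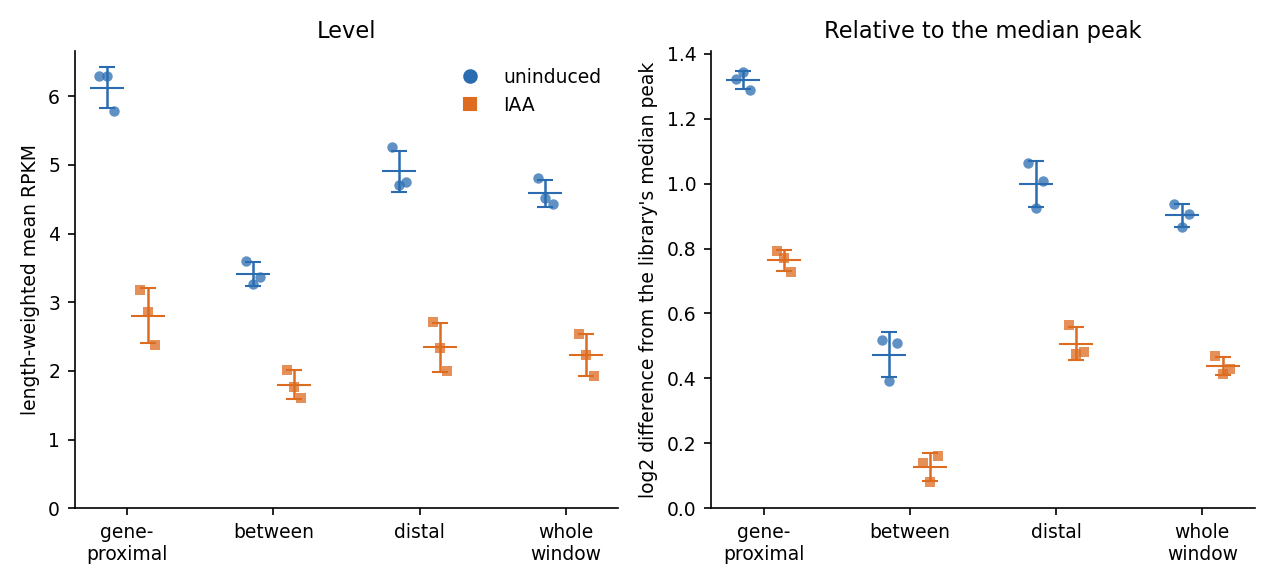
Length-weighted mean RPKM (left) and the log2 difference from the library's median peak (right) for the gene-proximal, between and distal peaks and the whole window, with 1 point per library, bars for the mean and its SD (n = 3), blue for uninduced and orange for IAA. In both panels all 3 IAA libraries sit below all 3 uninduced libraries in every set.

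As a length-weighted mean, peaks near an OCT4 site carried more H3K27ac than the others in every library, by a smaller margin after IAA. Single peaks did not all follow: in uninduced cells the unmarked peak at 2.2 kb had 6.85 RPKM and the marked peak at 94.1 kb 2.45 RPKM. The mean of the 8 marked peaks was 6.25 ± 0.309 RPKM in uninduced cells and 2.85 ± 0.425 RPKM after IAA (SD over 3 libraries each), and that of the 7 unmarked peaks 3.14 ± 0.104 RPKM before and 1.70 ± 0.199 RPKM after (SD over 3 libraries each). Marked peaks exceeded unmarked ones by 0.99 ± 0.0230 on the log2 scale (SD, n = 3) before and by 0.75 ± 0.0713 (SD, n = 3) after IAA, a change of -0.25 with no overlap between groups (two-sided exact permutation test, p = 0.1). This rests on the whole sets, since with only the highest peak of each kind the change was 0.33 in the other direction, the highest unmarked peak being that at 2.2 kb. The unmarked peaks were unlike each other. The 3 that lie within 6 kb of a marked peak had log2 changes of -0.61, -1.49 and -1.05, and the 4 farther away had changes of -0.57 to -0.65, a distance chosen after the values were seen. Level and mark went together: of the 9 peaks with an uninduced mean of at least 3 RPKM, 7 were marked, and their log2 changes ran from -0.99 to -1.49, whereas the 6 lower peaks, 1 of them marked, changed by -0.57 to -0.92. Over the 15 peaks the log2 uninduced level and the log2 change had a Pearson r of -0.82 and a Spearman rho of -0.87. The change is computed from that same uninduced level, and the peaks share their libraries. Over all 26457 peaks these coefficients were -0.29 and -0.24. Among all peaks of at least 3 RPKM the median log2 change was -0.79 for marked and -0.56 for unmarked peaks, and among lower peaks -0.67 and -0.50.

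**Figure D4:**
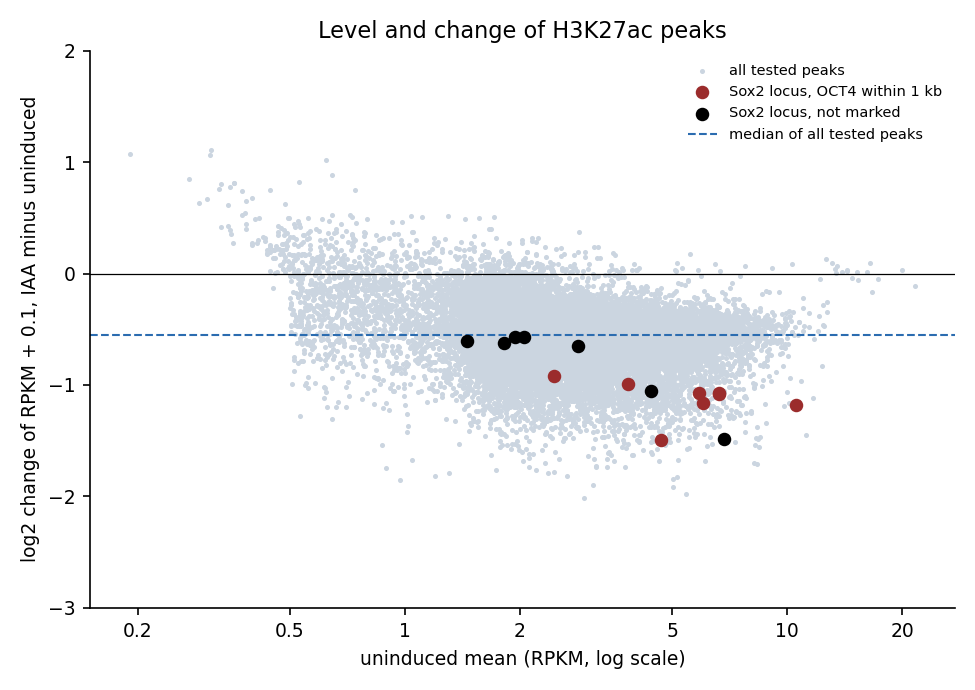
Log2 change of RPKM + 0.1 (vertical axis, IAA minus uninduced) against the uninduced mean in RPKM (horizontal log axis) for all 26457 peaks above the threshold in light gray, with the 8 marked (red) and 7 unmarked (black) peaks of the Sox2 window. The dashed line is the all-peak median of -0.55: peaks of the window above 3 RPKM lie well below it, and those at 1.46 to 2.05 RPKM lie near it.

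Neighbouring peaks were joined into clusters, and the window holds 4 of the 14941 clusters in the genome. The 7 peaks from 8.4 kb upstream to 18.5 kb form a cluster of 27319 bases that held 36.1 reads per 1000000 in uninduced cells and 16.4 after IAA. It ranked 78th by this sum before and 217th after. The 4 marked distal peaks form a cluster of 15873 bases with 16.1 reads per 1000000 before and 7.56 after IAA, ranked 636th and 1276th. Among the 2557 clusters of 3 or more peaks, the gene cluster had the 58th and the distal cluster the 75th largest fall, with log2 ratios of -1.14 and -1.09. The cluster of the 3 unmarked peaks at 41.8 to 59.4 kb ranked 891st, with a log2 ratio of -0.66. These ranks describe sums over peaks called in uninduced cells and were not tested.

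The other core pluripotency genes kept a larger share of their H3K27ac than Sox2 in these libraries. Peaks within 10 kb of Pou5f1 had 9.71, 9.97 and 9.66 RPKM before and 8.20, 7.80 and 6.41 RPKM after IAA, and those near Nanog, a homeobox factor of the same circuit, 6.08, 5.45 and 5.90 RPKM before and 3.83, 4.06 and 3.45 RPKM after. The log2 changes were -0.40 at Pou5f1 and -0.62 at Nanog, against -1.14 at Sox2. The log2 ratio of Sox2 to Pou5f1 went from -0.68 ± 0.0582 (SD, n = 3) to -1.42 ± 0.0415 (SD, n = 3), and that of Sox2 to Nanog from 0.08 ± 0.121 (SD, n = 3) to -0.44 ± 0.145 (SD, n = 3). Neither pair of groups overlapped (two-sided exact permutation test, p = 0.1 for each). The log2 ratio of Sox2 to Nanog lay on both sides of 0 among the uninduced libraries and below 0 in all 3 IAA libraries. At Pou5f1 the reads of exons cannot be told apart from those of the Oct4 transgenes, which carry the same coding sequence.

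Sox2 ranked 347th of 13769 protein-coding genes by uninduced H3K27ac within 10 kb and 2532nd after IAA, and 0.893% of these genes had a larger fall. The 5 genes whose values over the 6 libraries were most like those of Sox2, by the root mean square difference of log2 levels, were Tbc1d13 (0.0713), Tdgf1 (0.0928), Klf4 (0.0938), Mocs3 (0.0944) and Loxl1 (0.0990). Of these Tdgf1 encodes the NODAL co-receptor CRIPTO, expressed in ESCs, and Klf4 a Krüppel-like factor of the naive network. The log2 changes of the 5 genes were -0.97 to -1.24. The genes were picked on these same values, IAA libraries included, and not by function. Changes near that of Sox2 therefore follow from the choice.

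Among the other genes of the OCT4-SOX2 circuit, 17 of 18 had a peak within 10 kb, the exception being Lefty1. Of their 62 peaks, all above the threshold, limma called 57 lower and 0 higher, against the 68.2% of all peaks, and 15 lower after the centring described above, against 1.97%. All 17 genes were lower in every IAA library than in any uninduced one, as were 78.8% of the 13769 protein-coding genes with a peak. The median log2 change was -0.88 over the 17 genes and -0.53 over all of these protein-coding genes. Only 3 of the 17 had a larger change than Sox2: Nr0b1, which encodes the nuclear receptor DAX1, from 2.21 ± 0.185 to 0.603 ± 0.226 RPKM (SD, n = 3), Sall4, a zinc finger factor, from 7.39 ± 0.559 to 2.84 ± 0.351 RPKM (SD, n = 3), and Klf4, from 6.08 ± 0.245 to 2.59 ± 0.396 RPKM (SD, n = 3). The 2 circuit genes with the smallest changes were Pou5f1 and Dppa4, with log2 changes of -0.40 and -0.55, an order that was not tested.

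In the SOX family, 9 of the other 19 genes had a peak within 10 kb. Of 15 peaks above the threshold at these genes, limma called 12 lower and 0 higher, beside the 68.2% of all peaks, and 4 lower with centring, against 1.97%. These 4 are peaks of Sox21. Sox21, which encodes a SOX repressor of neural progenitors, was the only other member with an uninduced level above that of Sox2, at 8.14 ± 0.347 RPKM (SD, n = 3), and its level after IAA was 3.38 ± 0.326 RPKM (SD, n = 3), with a log2 change of -1.27. Sox15, a family member expressed in ESCs, went from 5.34 ± 0.324 to 3.45 ± 0.390 RPKM (SD, n = 3), a log2 change of -0.64. Sox1, another gene of neural progenitors, had 1.62 ± 0.248 RPKM before and 1.10 ± 0.502 RPKM after IAA (SD over 3 libraries each) with overlapping libraries, and Sox3 had no peak within 10 kb. Sox6 held 2 peaks below the threshold, at 0.0264 RPKM before and 0.0274 RPKM after IAA. These values rest on the same number of reads in every library, near the floor of the files. They differ by library size alone and show no change of H3K27ac.

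**Figure D5:**
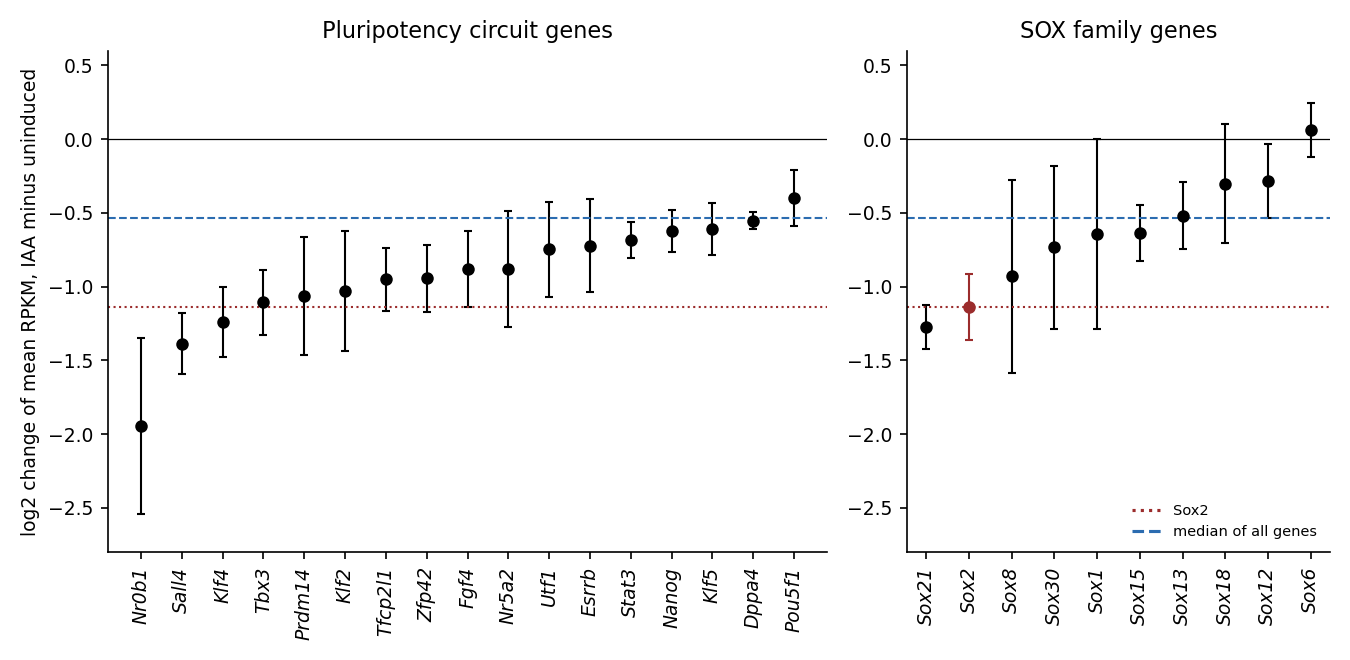
Log2 change of the length-weighted mean RPKM of peaks within 10 kb (vertical axis, IAA minus uninduced) for circuit genes (left) and SOX family genes (right) with a peak, with error bars of the square root of the summed variances of the log2 values of both groups (n = 3 each). The dotted line is Sox2 at -1.14 and the dashed line the median over all protein-coding genes with a peak, -0.53: Nr0b1, Sall4, Klf4 and Sox21 lie below the dotted line. The point of Sox6 lies near the floor of the files and reflects library size alone.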

How the data were processed

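The data are H3K27ac ChIP-seq from 3 uninduced and 3 IAA libraries of O4AID ESCs. The authors aligned reads to GRCm38 (mm10) with Bowtie2 2.3.4.3, removed duplicates, called peaks with MACS2 on the pooled uninduced IPs and deposited RPKM values per peak made with DiffBind, whose version, like that of MACS2, is not given in the sources used here. The pooled columns equal the mean of the 3 libraries. The labels and the paper name different catalogue numbers for the antibody. With peak length as end minus start, every deposited RPKM value (100%) is a whole number of reads within 0.02, from which library sizes and reads per peak follow. The median peak tested held 36 to 73 reads, a counting error of 11.7% to 16.7%, and the files give no peak fewer than 1 read. Coordinates are those of the files.

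Peaks at 0.5 RPKM or more in either pooled column entered a limma 3.58.1 fit (R 4.3.3) of log2(RPKM + 0.1) (trend and robust, all 6 libraries, Benjamini-Hochberg over 26457 peaks). The fit was also run on simulated data with independent noise and no shift common to the peaks of a library. That run therefore does not bear on the common fall in these data. Length-weighted means were compared on log2(RPKM) by the exact permutation test over 20 labellings, in Python 3.11.15 with numpy 2.4.6. Clusters join peaks across gaps of at most 12.5 kb. Genes come from GENCODE vM21, promoters and sequence from RefSeq for GRCm38.p6. Values per library are given for the highest gene-proximal peak, every distal peak and every OCT4-marked peak, and for the peak at 2.2 kb, which was added after its values were seen. No octamer or composite lay in the highest distal peak, so the SOX core beside it was printed. The peaks, gene lists and tests were chosen with earlier results of these data known. Alternatives covered pseudocount, threshold, scaling, limma settings, the replicate number as a block, region limits and leaving out each library.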

Additional observations from a re-analysis of the deposited data

How the results depend on the processing

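Under the alternatives run, the only value to change direction was the contrast of OCT4-marked with unmarked peaks, which was 0.33 in place of -0.25 with the highest peak of each kind alone and -0.62 with unweighted medians over peaks. Scaling moved the counts most: 7 of the 15 peaks were called lower after each library was centred on its median peak and 7 after quantile normalization (1.97% and 1.69% of all peaks), with medians over the 15 peaks of -0.50 and -0.47. Relative to the median peak the change was -0.56 gene-proximal, -0.49 distal and -0.47 over the window, and relative to the median OCT4-marked peak -0.38, -0.31 and -0.29. A pseudocount of 1 gave a median of -0.81, as it shrinks low peaks. Unweighted medians gave -1.40 for the gene-proximal peaks and 0.25 for distal minus gene-proximal, and the highest peak alone -1.19 for the window, and the cause was not tested. Without 1 library the count of lower peaks was 11 to 14, and the median over the 15 peaks -1.12 to -0.88, the smallest fall without IAA replicate 3. The other 115 alternative values of counts, regions and contrasts stayed within the spread between replicates or, for counts, within 1.5 times. Over the alternative fits of single peaks, 176 stayed on the same side of the threshold and 34 lost the call. Over peaks, same-numbered libraries had correlations of -0.01, -0.09 and -0.06 in their deviations from the group means. Such a correlation does not see a shift common to all peaks of a library. The share of reads in peaks fell from replicate 1 to 3 in both groups. It was 7.12%, 6.91% and 6.63% in uninduced and 5.15%, 4.68% and 4.05% in IAA libraries. Whether the replicate numbers pair the samples was therefore not settled. With the replicate block limma called 15 of 15 peaks lower, and the changes of the regions were the same, at -1.14 gene-proximal and -1.07 distal (exact sign permutation, p = 0.25, the smallest that 3 pairs allow).

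Depth limits the low peaks. At 41.8 and 123.4 kb the lowest library held 11 and 15 reads, a counting error of 30.2% and 25.8%. IAA treatment of cells without OCT4-AID was not analysed here, so in these libraries an effect of IAA and one of OCT4 loss cannot be told apart. The paper gave IAA to ESCs whose degron is on green fluorescent protein. By ChIP-qPCR it reports H3K27ac unchanged there at the distal enhancers of Klf4 and Prdm14. Sox2 was not among the loci shown. OCT4 sites come from published data of other ESCs, and peaks were called in uninduced cells alone, so peaks that arise after IAA could not be counted.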

Other observations

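The nearest peaks outside the window are far from it and carry no OCT4 mark. The peak at chr3:34485593-34485904, 114.1 kb below the window, had 1.72 ± 0.690 RPKM before and 1.10 ± 0.474 RPKM after IAA (SD over 3 libraries each), with a log2 change of -0.63 (limma with Benjamini-Hochberg adjustment, adjusted p = 0.0643). The peak at chr3:34884608-34885220, 104.6 kb above the window, had 1.69 ± 0.153 RPKM before and 0.999 ± 0.198 RPKM after IAA (SD over 3 libraries each), with a log2 change of -0.72 (limma, adjusted p = 0.0106). No peak was called between either of them and the window.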
